A study of Mus musculus with 4 samples.

Results

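The olfactory and vomeronasal receptor genes of the mouse were examined as a group of loci for binding of CTCF and of RAD21, a subunit of cohesin, in gastruloids. A member was a peak whose summit lay within 20 kb of a protein-coding gene annotated in GRCm38 as Olfr, Vmn1r or Vmn2r, on chromosomes 1 to 19 without chromosome 11. The annotation held 1380 such genes (1021 Olfr, 236 Vmn1r and 123 Vmn2r) among 19056 protein-coding genes, and their merged windows covered 39.9 Mb. Members numbered 335 of 44362 peaks in the wild-type CTCF list, 192 of 31905 in the Ins(CBS5-10) CTCF list and 207 of 33915 in the Del(CBS7-10) CTCF list. They numbered 119 of 18292 peaks in the Ins(CBS5-10) RAD21 list and 360 of 55240 in another RAD21 list, which makes 1213 of 183714 peaks in the 5 lists.

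Gastruloids are balls of cultured mouse embryonic stem cells that elongate and lay out a body axis. They were fixed in 1% formaldehyde 96 h after aggregation and pooled, and chromatin was profiled by ChIPmentation, where Tn5 transposase inserts library adapters into the immunoprecipitated chromatin. Each group had 1 library. CTCF was profiled in wild-type gastruloids and in 2 HoxB mutants, both with the genotype Del on one copy of HoxB and Del(i9-13) together with Ins(CBS5-10), an insertion of CTCF binding sites, on the other. The second mutant carried Del(CBS7-10) in addition, and RAD21 was profiled in the first. The mutants are called Ins(CBS5-10) and Del(CBS7-10) here. The fifth list has no sample record. Its peak names read RAD21, wt and 96h, and it is called the RAD21 list without a record here. With 1 library per group no test between genotypes was possible, and all intervals below are 95% intervals that cover counting error only. The lists hold no RNA, so the cell types of the gastruloids could not be checked against markers, and the number of clones behind each mutant line is not stated in the sources at hand.

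Olfactory receptors are odorant-binding proteins of the main olfactory epithelium, and vomeronasal receptors of the Vmn1r and Vmn2r families detect pheromones and related cues in the vomeronasal organ. Both kinds of gene lie in tandem arrays that grew by repeated duplication, and a mature sensory neuron typically expresses a single receptor gene or a few, with the rest held in heterochromatin. CTCF is a zinc-finger protein that binds a long, specific DNA motif, and it halts the cohesin ring as cohesin extrudes chromatin loops, so that both proteins often share a site.

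Receptor promoters were nearly free of CTCF peaks, and 4 promoters are shown here, from the strongest CTCF member to near copies with weaker peaks. RefSeq promoter windows of GRCm38.p6 (250 bases before to 50 after the start) were found for 1193 of the 1380 receptor genes, as 1197 windows. A wild-type CTCF peak overlapped 5 of these windows, 0.418% (0.136 to 0.972), against 7.16% of all promoter windows and 9.51% of windows of other protein-coding genes. In Ins(CBS5-10) and in Del(CBS7-10) the same 2 genes, Olfr38 and Vmn2r29, had a CTCF peak on the window, against 4.22% and 5.11% of all windows. The Ins(CBS5-10) RAD21 list had 1 (all windows 1.89%) and the RAD21 list without a record had 8 (all windows 29.6%). The 250 bases upstream of the start follow for both genes called in every CTCF list, and for Olfr243, called in the wild-type CTCF list, and its neighbour Olfr628, called in the RAD21 list without a record. Letters are lower case, 5′ to 3′ in the direction of the gene, and capitals mark the core of the CTCF motif, searched on both strands as CC, 3 bases of any kind, AG, 2 bases of any kind and GGC.
Vmn2r29, chr7:7278290-7278539, minus strand: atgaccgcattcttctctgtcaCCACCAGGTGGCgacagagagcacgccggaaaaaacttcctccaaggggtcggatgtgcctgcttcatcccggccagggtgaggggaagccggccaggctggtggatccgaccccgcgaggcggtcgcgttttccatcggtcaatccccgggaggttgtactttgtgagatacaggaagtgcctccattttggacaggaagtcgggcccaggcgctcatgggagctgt
Olfr38, chr6:42761804-42762053, plus strand: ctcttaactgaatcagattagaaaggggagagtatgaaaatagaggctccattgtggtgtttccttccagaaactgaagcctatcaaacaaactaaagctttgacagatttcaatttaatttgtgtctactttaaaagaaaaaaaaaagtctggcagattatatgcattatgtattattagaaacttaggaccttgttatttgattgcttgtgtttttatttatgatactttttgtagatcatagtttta
Olfr243, chr7:103716346-103716595, plus strand: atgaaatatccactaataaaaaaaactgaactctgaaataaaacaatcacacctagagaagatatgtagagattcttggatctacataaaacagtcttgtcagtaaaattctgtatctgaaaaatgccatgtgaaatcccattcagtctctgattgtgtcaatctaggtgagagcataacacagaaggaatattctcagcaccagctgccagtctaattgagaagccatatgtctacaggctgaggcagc
Olfr628, chr7:103731678-103731927, plus strand: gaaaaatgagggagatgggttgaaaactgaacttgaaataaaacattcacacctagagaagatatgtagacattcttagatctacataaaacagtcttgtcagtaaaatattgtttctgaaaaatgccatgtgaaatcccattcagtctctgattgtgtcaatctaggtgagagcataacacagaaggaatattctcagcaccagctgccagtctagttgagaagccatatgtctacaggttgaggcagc

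The Vmn2r29 promoter held the only match of the motif letters among the 5 promoters with a wild-type CTCF peak. The match ran from 7278506 to 7278517 on chromosome 7, 222 bp from the wild-type summit, which was 5 bp inside the gene. The fold enrichment there, the authors' ratio of summit signal over local background within a library, was 22.4 in wild type, 14.4 in Ins(CBS5-10) and 13.0 in Del(CBS7-10). RAD21 was called at the same promoter in both RAD21 lists, at 5.05 in Ins(CBS5-10) and 15.0 in the list without a record. The CTCF peaks that reached the Olfr38 promoter, which had no match in these letters, had folds of 4.22, 3.61 and 5.27 in the same order. Their summits lay at -371, -253 and -349 bp from the gene start, upstream of the printed bases. No RAD21 peak overlapped this promoter in either list. The promoters of Vmn2r30, Olfr243 and Olfr101 were called in the wild-type list alone, at 2.60, 3.61 and 2.71. The printed Olfr243 and Olfr628 sequences were identical at 229 of 250 aligned bases (91.6%). CTCF was called at the first alone (3.61, wild type) and RAD21 at the second alone (6.56, list without a record). These calls are of different proteins in different lists. Both summits lay past the printed bases, 36 and 23 bp from the gene start on the side of the gene. This pair was chosen after its values were seen.

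The motif letters were rare in receptor promoters as a whole. They were in 11 of 1197 receptor windows (0.919%, 0.460 to 1.64), in 10.7% of windows of other genes and in 8.66% of all promoter windows. Of the 11 receptor windows with the letters, 1 overlapped a CTCF peak in any list, as did 29.9% of the 1851 windows of other genes that held them. The receptor windows were also poorer in G and C, with a median of 35.7% against 57.7% for other genes. Sequence was shared between receptor copies: 25.9% of receptor windows held a run of 50 bases found in another window of the genome's promoters, against 6.60% for other genes. By family this share was 13.7% for Olfr, 55.5% for Vmn1r and 63.2% for Vmn2r. Reads from such runs can match several places. The sources used here do not say how they were placed, and the part of shared sequence in the counts below was not tested.

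Across the whole windows, CTCF peaks were sparse at receptor genes in every list. Density was 8.39 wild-type CTCF peaks per Mb (7.52 to 9.34) in the receptor windows and 26.3 within 20 kb of other protein-coding genes, which was 3.13 times higher. In Ins(CBS5-10) the receptor windows held 4.81 per Mb (4.15 to 5.54) against 19.6, and in Del(CBS7-10) 5.19 (4.50 to 5.94) against 20.9. RAD21 was sparse in the same way, at 2.98 against 10.9 per Mb in Ins(CBS5-10) and 9.02 against 33.4 in the list without a record. The density at other genes was thus 3.13 to 4.08 times that at receptors over the 5 lists. DNA more than 20 kb from any protein-coding gene held 11.03 wild-type CTCF peaks per Mb, also above the receptor windows. That order held in the other lists, where DNA over 20 kb from any protein-coding gene had 7.096, 7.51, 4.53 and 13.0 peaks per Mb.

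**Figure D1:**
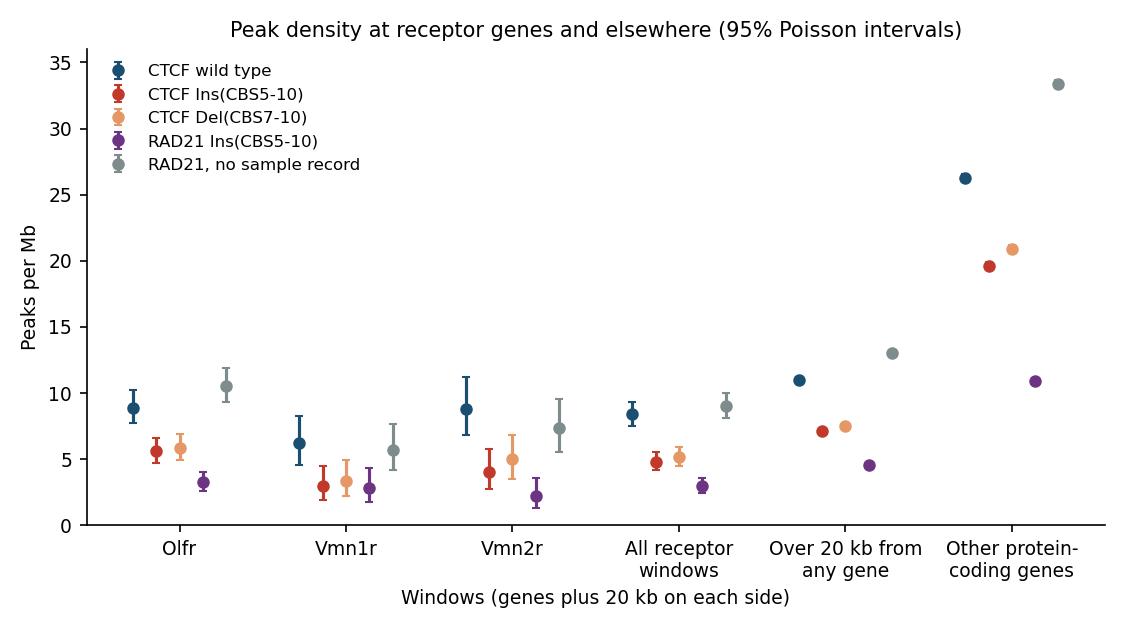
Peaks per Mb (y axis) in windows of Olfr, Vmn1r and Vmn2r genes, all receptor windows, DNA over 20 kb from any protein-coding gene and windows of other protein-coding genes (x axis). Points are the 5 peak lists and bars are 95% Poisson intervals, and every list has its highest density at other genes, with wild-type CTCF at 8.39 in all receptor windows and 26.3 at other genes.

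The 3 families were all below other genes, and the Vmn1r windows held the fewest CTCF peaks. Wild-type CTCF density was 8.91 per Mb (7.77 to 10.2) for Olfr, 6.24 (4.60 to 8.28) for Vmn1r and 8.80 (6.82 to 11.2) for Vmn2r, whose intervals all overlap. In Ins(CBS5-10) the values were 5.59, 2.99 and 4.07, and in Del(CBS7-10) 5.83, 3.38 and 4.99, with 1 peak of the last list in windows of 2 families. The interval for Olfr in Ins(CBS5-10), 4.70 to 6.60, lay above that for Vmn1r, 1.90 to 4.49. Of the 17 chromosomes with receptor genes, the receptor windows had the lower wild-type CTCF density on 13. The exceptions were chromosomes 4, 8, 15 and 18, with 28, 5, 9 and 1 receptor genes, and chromosome 4 had 27 peaks at 33.6 per Mb against 29.3. Chromosome 9, with 130 receptor genes, had the lowest value, 12 peaks at 3.42 per Mb.

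The receptor windows that also lay near other genes were as dense in CTCF as those genes. Receptor DNA within 20 kb of another protein-coding gene came to 3.45 Mb and held 85 wild-type peaks, 24.7 per Mb (19.7 to 30.5). The other 36.5 Mb of receptor DNA held 250, or 6.86 per Mb (6.03 to 7.76). The mutants split alike, at 19.1 and 3.46 per Mb in Ins(CBS5-10) and at 19.1 and 3.87 in Del(CBS7-10). Members near other genes had a median wild-type fold of 6.53, and the rest 3.61. Density rose with distance from the receptor gene, from 6.85 per Mb inside the genes and 7.11 within 5 kb to 13.0 at 15 to 20 kb and 24.1 at 100 to 200 kb. The window's limit fell within this slope: the wild-type peaks nearest to it were one 19989 bp from Olfr282 with a fold of 6.71, inside, and one 20098 bp from Vmn1r72 with a fold of 3.59, outside.

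Receptor genes at most 500 kb apart were joined into 69 clusters, of which 29 had 10 genes or more and held 1247 receptor genes. All 29 had a lower wild-type CTCF density over their span than the windows of other genes, with a median of 7.102 per Mb and a range from 1.90 to 19.7. A span, unlike a window, is not limited to DNA near genes. DNA more than 20 kb from any protein-coding gene held 11.03 per Mb, above the median of the clusters and below the densest of them. The medians were 3.98 in Ins(CBS5-10) and 4.63 in Del(CBS7-10), again with all 29 below other genes, and in each mutant list 2 of the clusters held no CTCF peak. In the RAD21 lists 29 and 28 clusters were below other genes.

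The largest cluster, Olfr987 to Olfr1274 on chromosome 2 (85330967 to 90401674), held 222 olfactory receptor genes in 5.07 Mb and was among the 5 sparsest. It had 24 wild-type CTCF peaks, 4.73 per Mb, and 9 in each mutant, 1.77 per Mb. Merged over the CTCF lists these were 27 sites. Of these, 6 were called in all 3 lists, each also overlapping a RAD21 peak of Ins(CBS5-10), and 15 in wild type alone. Among sites called in all 3 lists, 59.7% in the receptor windows and 56.1% at other genes overlapped such a RAD21 peak. Of all CTCF sites on the chromosomes used, 49.0% were called in all 3 lists and 24.7% in wild type alone. The cluster's strongest peak within 20 kb of a receptor gene lay by Olfr1066 at 86464675 to 86465103. It had folds of 13.3, 10.2 and 10.7 for CTCF, and 8.94 and 11.5 for RAD21. A second wild-type peak of fold 13.3, near the far end of the cluster, was over 20 kb from any receptor gene. The site by Olfr1066 was 945939 bp from the nearest other gene, Fads2b. Between Olfr1193 and Olfr1233 a stretch of 751 kb with 35 receptor genes had no CTCF peak in any of the 3 lists and no RAD21 peak in Ins(CBS5-10), and 4 in the RAD21 list without a record.

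**Figure D2:**
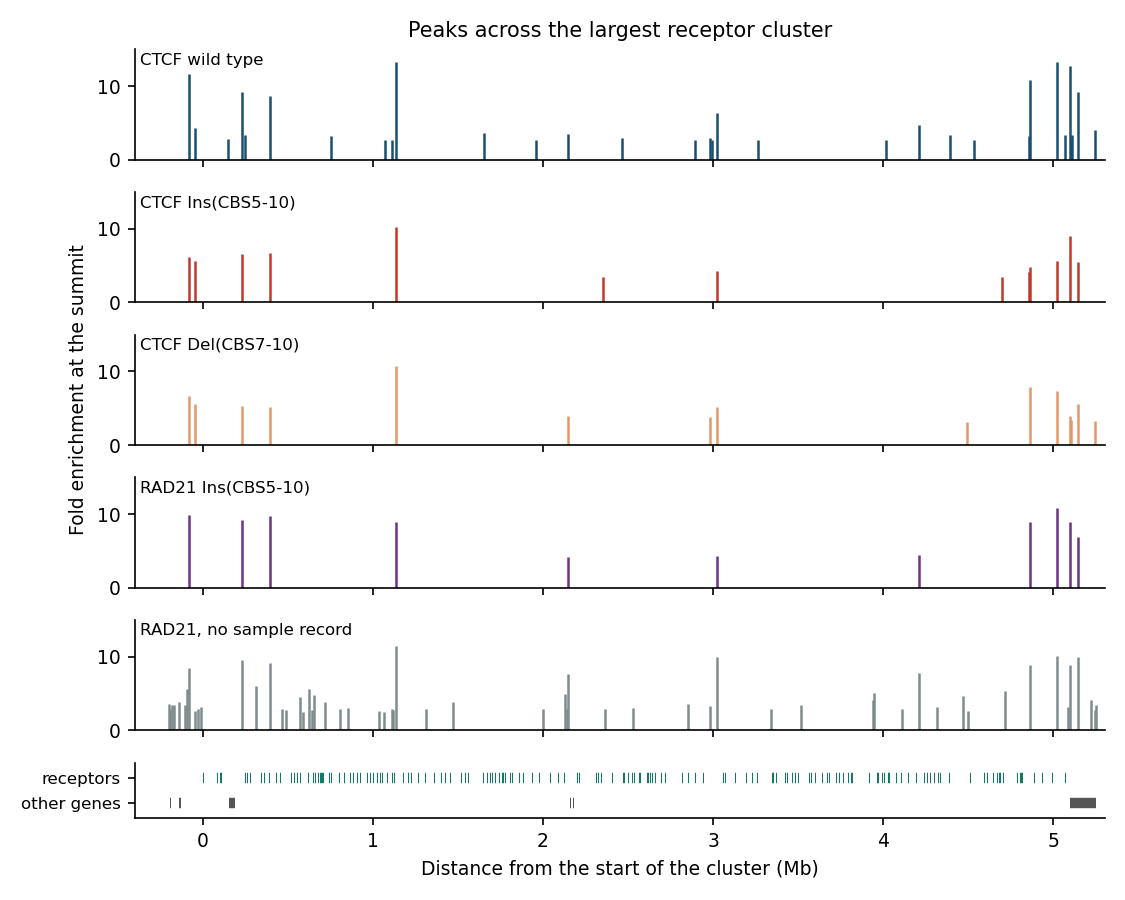
Peaks across the largest receptor cluster, with distance from its start in Mb (x axis) and the authors' fold enrichment at the summit (y axis, linear) in 5 rows, 1 per list, and 0.2 Mb of flank on each side. The lowest row marks receptor genes and other protein-coding genes; tall peaks recur at the same places in all rows, and short peaks are mostly in a single CTCF row.

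The sparsest cluster was Olfr24 to Olfr18 on chromosome 9, with 35 receptor genes in 1.58 Mb. It held 3 wild-type CTCF peaks (1.90 per Mb), 2 in Ins(CBS5-10) and 3 in Del(CBS7-10). The second, Vmn1r91 to Vmn1r183 on chromosome 7, held 90 Vmn1r genes beside 14 others and had 11, 3 and 2 CTCF peaks. Of the 12 sites in this cluster, 9 were called in wild type alone, against 24.7% of all CTCF sites. Olfr62 to Olfr1328 on chromosome 4 (13 genes) had 1, 2 and 1 CTCF peaks. Olfr160 to Olfr986 on chromosome 9, with 95 genes in 2.48 Mb, had 10, 8 and 8, at 4.04, 3.23 and 3.23 per Mb.

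The 5 densest clusters held 3 to 37 other genes each, and the 5 sparsest 0 to 14. Vmn1r55 to Olfr1350 on chromosome 7 had 20 receptor genes beside 12 others and 28 wild-type CTCF peaks, 19.7 per Mb. Olfr722 to Vmn2r89 on chromosome 14 had 30 beside 25 others, and 19.1 per Mb. Olfr1358 to Vmn2r83 on chromosome 10 followed with 14 beside 6 others and 16.1, Olfr458 to Olfr47 on chromosome 6 with 20 beside 3 and 15.5, and Olfr1370 to Vmn1r223 on chromosome 13, with 48 receptor and 37 other genes, with 14.7. The densities of these 5 clusters were lower in Ins(CBS5-10), from 8.26 to 12.8 per Mb.

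Peak density varied within the large clusters and was higher outside them. More than 500 kb inside a cluster the wild-type CTCF density was 6.15 per Mb (5.13 to 7.31). It was 15.5 (12.4 to 19.1) from 100 to 200 kb inside, 12.6 (7.92 to 19.1) from 20 to 50 kb inside and 5.17 (1.90 to 11.3, 6 peaks) in the last 20 kb. In the first 20 kb outside it was 19.8 (12.6 to 29.8), an interval that overlaps those of some bands inside, and from 50 to 100 kb outside it was 29.4 (23.4 to 36.3). The share of DNA within 20 kb of another gene was between 8.67% and 22.4% in the bands inside, where it did not follow the density: it was lowest from 20 to 50 kb inside and highest in the last 20 kb. It was 43.5% and 71.5% in the outer bands named, and its part was not tested.

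**Figure D3:**
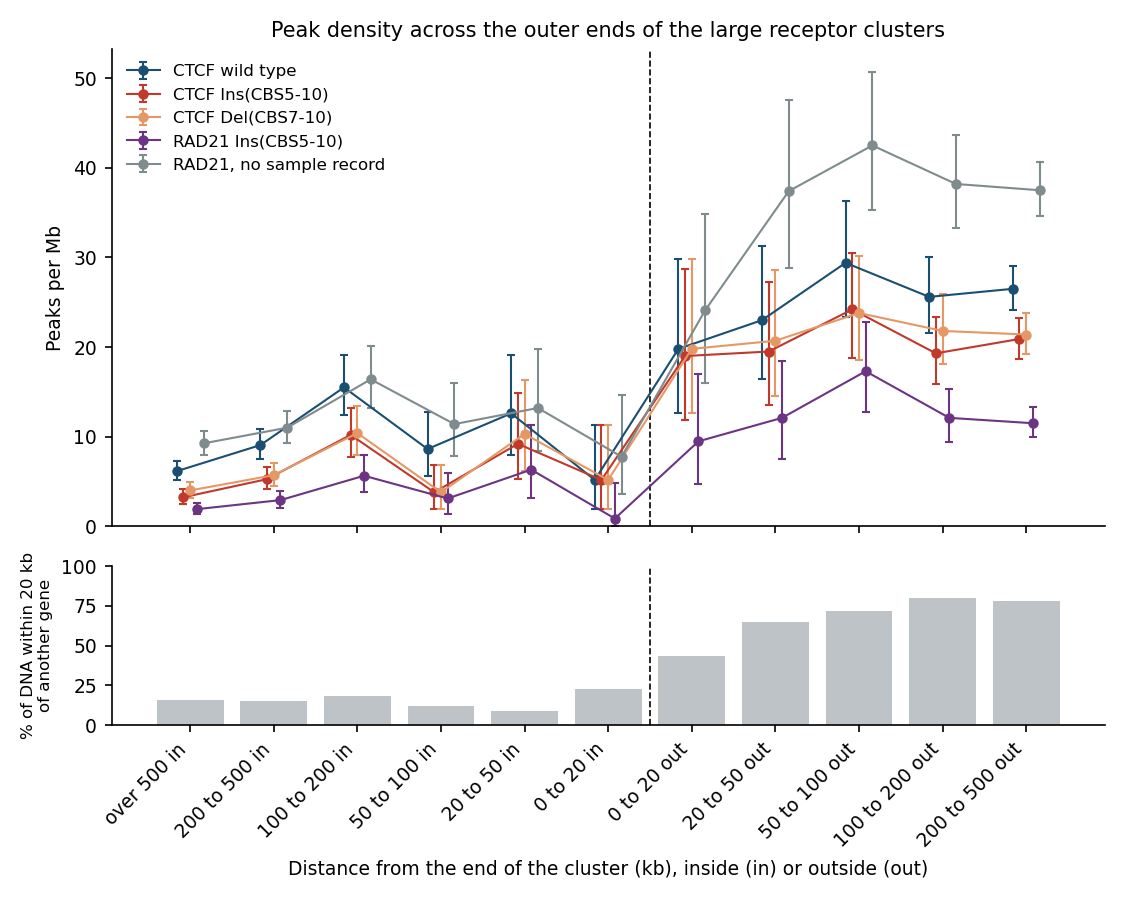
Peak density per Mb by distance from the ends of the 29 large clusters (x axis, kb, inside to the left of the dashed line and outside to the right), with 95% Poisson intervals, for the 5 lists. The lower bars give the percent of DNA within 20 kb of another protein-coding gene; both are higher just outside the dashed line than just inside it, and wild-type CTCF goes from 5.17 (6 peaks) to 19.8 per Mb.

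Receptor genes lay in long stretches without CTCF more often than other genes. The median distance between neighbouring wild-type CTCF summits was 22.9 kb over the chromosomes used. Of the 350 gaps of 500 kb or more, 20 held receptor genes, 313 in all. These were 22.7% of the receptor genes, and the 350 gaps held 1.22% of other genes. The longest with at least 10 receptor genes was 1219 kb on chromosome 7, from Vmn1r124 to Vmn1r254, with 24 receptor genes and no CTCF peak in either mutant. A gap of 1099 kb on chromosome 9 held 23 receptor genes from Olfr836 to Olfr870, and 1 of 1076 kb on chromosome 7 held 29 from Vmn1r91 to Vmn1r122. Each of these 2 contained 1 CTCF peak in each mutant.

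Counted by gene, most receptor genes had no CTCF peak near them. A wild-type CTCF summit lay within 20 kb of 340 of the 1380 (24.6%, 22.4 to 27.0), against 82.8% of all protein-coding genes and 87.3% of those that are no receptors. The shares were 25.1% for Olfr, 17.4% for Vmn1r and 35.0% for Vmn2r. In Ins(CBS5-10) 14.6% of receptor genes had a CTCF summit (all genes 75.7%), and in Del(CBS7-10) 16.1% (all genes 77.4%). RAD21 summits lay near 10.4% in Ins(CBS5-10) (all genes 60.9%) and near 27.5% in the list without a record (all genes 87.2%). No CTCF peak in any list lay near 974 receptor genes, 70.6%, against 15.0% of all protein-coding genes. Neighbouring receptor genes share windows and peaks, so they are not independent counts. A window is the gene plus 20 kb on each side, so these shares also depend on gene length, which was not adjusted for. Per Mb, the wild-type CTCF densities of Olfr and Vmn2r were close, at 8.91 and 8.80.

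Of 10 receptors often used in the field, 9 were protein-coding in the annotation (Olfr151 is listed as a transcribed pseudogene). No CTCF peak lay within 20 kb of 7 of these 9 in any list, where 70.6% of all receptor genes had none. The 7 were Olfr17, Olfr1507, Olfr160, Olfr16, Olfr2, Olfr73 and Vmn2r116, the receptor for the male pheromone ESP1. Olfr78, which is also expressed in the carotid body, had a CTCF peak inside the gene with a fold of 6.07 in wild type and 6.56 in Del(CBS7-10), and none in Ins(CBS5-10). Vmn2r26 had one of 4.19 in Del(CBS7-10) alone. Of 23 genes of olfactory signalling, receptor transport and receptor choice, 22 had a CTCF peak within 20 kb in all 3 lists. So did 72.9% of all protein-coding genes and 77.7% of those that are no receptors, and such shares depend on gene length. Gnal, the olfactory G protein subunit, had folds of 12.1, 8.40 and 8.96, and Lhx2, a homeobox regulator of receptor choice, 12.5, 7.25 and 7.16. Ldb1, its cofactor, had 16.0, 9.27 and 7.51. Rtp2, a chaperone that helps receptors reach the membrane, was the 1 without a peak.

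Wild-type CTCF peaks at receptors were weaker than those at other genes. The median fold was 4.02 at receptors (Olfr 4.78, Vmn1r 3.41, Vmn2r 3.35) and 5.84 at other genes. Peaks over 20 kb from any protein-coding gene were also weaker than those at other genes, with a median of 4.73, near that of the Olfr members. The wild-type ratio of receptors to other genes, 0.689, was 0.922 among peaks with a −log10 q of at least 5. The gap over all peaks was smaller in the mutants, whose lists are shorter, at 5.14 against 5.60 in Ins(CBS5-10) and 4.87 against 5.32 in Del(CBS7-10). RAD21 went the same way in Ins(CBS5-10), at 5.62 against 6.10, and the other way in the list without a record, at 4.49 against 4.15. Each list was divided into 10 deciles by fold. The weakest decile held 19.4% of the wild-type members and 8.70% of the peaks at other genes, and the strongest held 6.27% and 11.01%. Peaks over 20 kb from any protein-coding gene lay between these, with 13.4% in the weakest decile and 7.23% in the strongest. In density terms, other genes had 1.40 times as many wild-type peaks per Mb as receptors in the weakest decile, and 8.04 and 5.50 times as many in the 2 strongest. The corresponding ratios from weakest to strongest decile were 2.99 and 4.37 in Ins(CBS5-10), and 2.91 and 5.12 in Del(CBS7-10).

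**Figure D4:**
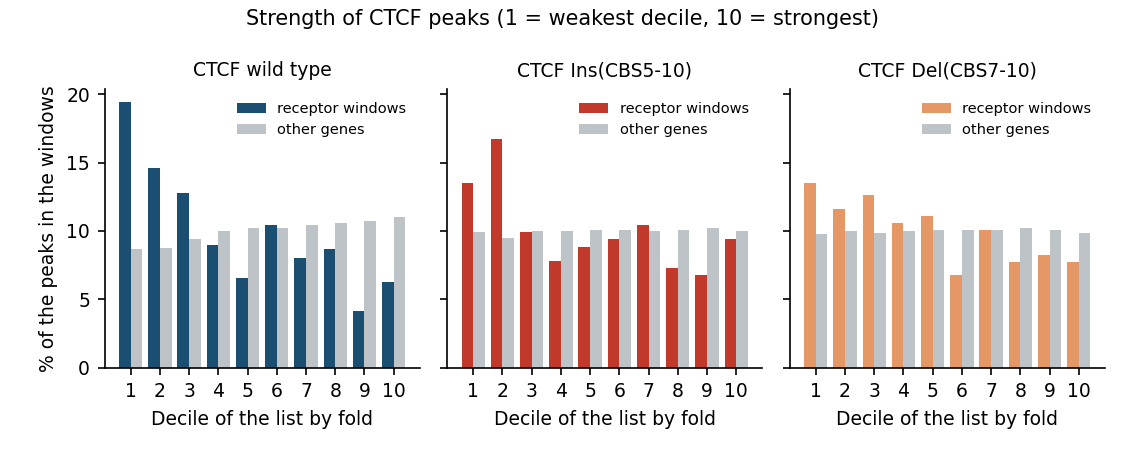
Percent of CTCF peaks (y axis) in each decile of its own list by fold enrichment (x axis, 1 is the weakest), for receptor windows in colour and other genes in grey. The wild-type members crowd into decile 1 (19.4%), and the 2 mutant lists are flatter.

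The 10 strongest wild-type CTCF members had folds from 12.6 to 22.4, and all 10 were called in both mutants as well. Of the wild-type peaks at other genes in deciles 8 to 10, 97.9% were found in Ins(CBS5-10) and 98.1% in Del(CBS7-10). Within 20 kb of another gene lay 7 of the 10 members, where 25.4% of all wild-type members did. After Vmn2r29 came a site inside Clcn4, a chloride transporter gene, and 12597 bp from Vmn2r30, with CTCF folds of 18.7, 15.7 and 13.8 in wild type, Ins(CBS5-10) and Del(CBS7-10). A site between Olfr94 and Ubd on chromosome 17 (37203538 to 37204060) had 16.4, 14.4 and 11.1, and RAD21 at 15.5 and 13.5. Next was one near Olfr649 and Trim6, in the olfactory receptor array around the beta-globin genes, with 14.9, 11.5 and 8.08. By Olfr279, 110 bp from Kansl2, a subunit gene of a histone acetyltransferase complex, the folds were 14.8, 10.5 and 10.4. Those by Olfr1368, Olfr557, Olfr655 and Olfr750 had wild-type folds of 14.0, 13.6, 13.3 and 12.6. Folds were lower in both mutants than in wild type at each of the 10. The 10 were chosen by their wild-type fold, and such a choice by itself favours lower folds in other lists. Folds of separate libraries are also not on a common scale: the strongest decile began at 11.4 in wild type, 8.89 in Ins(CBS5-10) and 8.29 in Del(CBS7-10).

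Fewer wild-type members than other peaks were found in the mutants, and the gap lay in the weaker peaks. An Ins(CBS5-10) CTCF peak overlapped 151 of 335 wild-type members, 45.1% (39.7 to 50.6), against 63.0% of all wild-type peaks and 66.0% at other genes. With the other genes' peaks weighted to the members' deciles of fold, 51.2% would be found, just above the interval. A Del(CBS7-10) peak overlapped 49.9% (44.4 to 55.3), against 65.8% of all wild-type peaks and 69.1% at other genes, or 54.8% after weighting, within the interval. Among wild-type peaks with a −log10 q of at least 5, of which 180 were members, the members' shares were 78.3% and 85.6%, against 82.4% and 85.0% at other genes. In deciles 1 to 3, which held 157 members, 7.64% (4.01 to 13.0) were found in Ins(CBS5-10), against 18.6% at other genes. In deciles 8 to 10, 63 of 64 members were found there, 98.4%, against 97.9%. For Del(CBS7-10) the same classes gave 10.8% against 23.1%, and 95.3% against 98.1%.

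**Figure D5:**
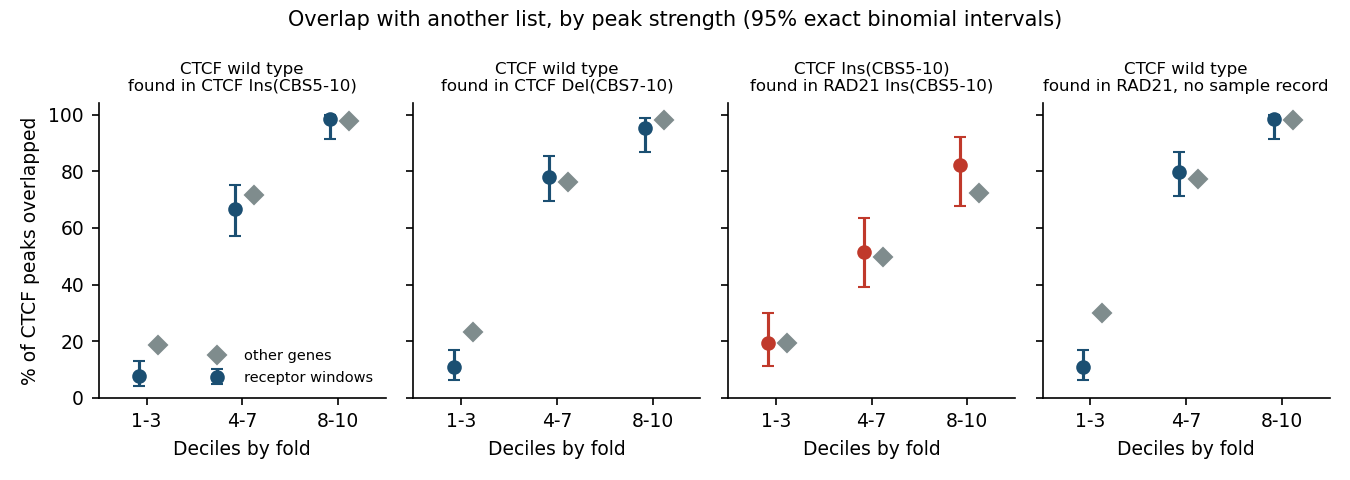
Percent of CTCF peaks (y axis) that overlap a peak of another list by at least 1 bp, by deciles of fold in their own list (x axis), for members (circles with 95% exact binomial intervals) and for peaks at other genes (diamonds). The intervals of the members include the value at other genes in deciles 4 to 10 of all 4 panels, and in deciles 1 to 3 the members are lower in 3 of the 4 panels, as at 7.64% against 18.6% in the first.

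Most peaks of the mutants were found in wild type. Of 192 Ins(CBS5-10) members, 78.1% (71.6 to 83.8) overlapped a wild-type peak, against 87.5% of all peaks of that list and 83.6% at other genes after weighting. Of 207 Del(CBS7-10) members, 80.2% (74.1 to 85.4) did, against 85.8% of all and 83.3% after weighting. Between the mutants, 74.0% of Ins(CBS5-10) members were found in Del(CBS7-10) (all peaks 82.7%) and 68.1% the other way (all peaks 77.7%). The Vmn2r members were shared least: 28.4% (18.0 to 40.7) of 67 wild-type peaks were found in Ins(CBS5-10), where 51.4% (44.6 to 58.1) of the Olfr members were. Weighting the other genes' peaks to the strength of each family gave 37.7% and 57.5%.

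Merged over the 3 CTCF lists, the receptor windows held 413 sites. Of these, 139 (33.7%, 29.1 to 38.4) were called in all 3 lists, against 49.0% of all CTCF sites and 51.8% at other genes. Another 157 (38.0%) were called in wild type alone (all sites 24.7%), 38 (9.20%) in Ins(CBS5-10) alone (all sites 6.03%) and 37 (8.96%) in Del(CBS7-10) alone (all sites 7.61%). Vomeronasal receptor sites were in all 3 lists in 23.6% of cases (17.1 to 31.3) and Olfr sites in 39.2% (33.3 to 45.4). A RAD21 peak of Ins(CBS5-10) overlapped 59.7% of the receptor sites called in all 3 lists against 56.1% at other genes, and 6.37% of those called in wild type alone, against 8.51%.

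The sites of a single list were weak, with few exceptions. The strongest called in wild type alone lay on chromosome 14 (14345487 to 14345770), 323 bp from Il3ra, the interleukin 3 receptor alpha gene, and 16523 bp from Olfr31, with a fold of 11.1. The next 4, by Olfr221, Olfr282, Olfr1513 and Olfr1357, had 6.83, 6.71, 6.27 and 5.89. The 5 strongest of Ins(CBS5-10) alone had folds from 4.12 to 4.90, led by one 10718 bp from Olfr1335, and those of Del(CBS7-10) alone had 4.14 to 4.19, with those by Vmn1r215, Vmn2r72 and Vmn2r26 tied at 4.19. A site by Vmn2r102 was missing from Ins(CBS5-10) only: it had the same start and end, 19658570 and 19658731 on chromosome 17, in wild type (7.22) and in Del(CBS7-10) (9.42), and no RAD21 in either list.

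How often RAD21 accompanied CTCF at receptors depended on the lists compared. In Ins(CBS5-10), the genotype with a sample record for both proteins, a RAD21 peak overlapped 88 of 192 CTCF members, 45.8% (38.6 to 53.2). All CTCF peaks of that list gave 48.8%, those at other genes 47.8%, and those at other genes weighted by strength 43.0%. The direction of the difference from other genes, -1.96 percentage points, was not stable, and was -11.7 with 5 kb windows, 5.38 at a −log10 q of 5 or more and 3.36 without chromosome 7. In deciles 8 to 10, RAD21 was called on 82.2% (67.9 to 92.0) of 45 members, against 72.3% at other genes. By family the share was 47.8% (39.3 to 56.5) for Olfr, 60.9% (38.5 to 80.3) of 23 Vmn1r members and 25.8% (11.9 to 44.6) of 31 Vmn2r members, with intervals that overlap. The RAD21 list without a record overlapped 51.0% (45.6 to 56.5) of the wild-type CTCF members, against 68.4% of all wild-type peaks and 58.1% at other genes after weighting, both above the interval.

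The strongest Ins(CBS5-10) CTCF members with RAD21 were by Vmn2r29, Olfr94, Olfr649, Olfr763 and Olfr655. Their CTCF folds were 14.4, 14.4, 11.5, 10.98 and 10.7, and their RAD21 folds 5.05, 15.5, 11.2, 7.91 and 11.1. The strongest without RAD21 in that genotype were by Vmn2r30 (inside Clcn4), Olfr557, Olfr279, Olfr470 and Olfr71, at 15.7, 12.4, 10.5, 9.91 and 9.71. Of these 5, the RAD21 list without a record had a peak on 4, at 6.35, 7.34, 5.43 and 7.40, and none by Olfr470. That RAD21 list overlapped 68.8% of all Ins(CBS5-10) CTCF members and 78.8% of the Ins(CBS5-10) CTCF peaks at other genes.

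RAD21 was also called at receptors without CTCF. Of the 119 Ins(CBS5-10) RAD21 members, 73.9% (65.1 to 81.6) lay on a CTCF peak called in Ins(CBS5-10), against 85.1% of all RAD21 peaks of that list. The share was 82.5% for Olfr, 63.6% for Vmn1r and 47.1% for Vmn2r, the last over 17 peaks. The strongest 2 without CTCF there were in Olfr15 on chromosome 16 (9.001) and by Vmn2r19 on chromosome 6 (8.22). Both had CTCF in wild type, at 4.50 and 6.10, and in Del(CBS7-10), at 3.03 and 3.26. The sites next in strength, by Vmn2r30, Olfr685 and Vmn1r214, had RAD21 folds of 6.89, 6.51 and 5.56. They had CTCF in wild type, at 3.54, 5.85 and 5.64, and no CTCF peak in Del(CBS7-10). A wild-type CTCF peak overlapped 89.1% (82.0 to 94.1) of the RAD21 members, against 94.3% of all RAD21 peaks.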

How the data were processed

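Reads were trimmed and peaks called with cutadapt 4.1 and MACS2 2.2.7.1 on mm10, per the submitters' processing notes. Peaks were called per library by the authors. The sources used here do not name the aligner, mapping filter, control or caller options. The deposited fold enrichment is a ratio at the summit. The deposited −log10 q value of each peak was at least 1.30 in every list, and the authors' summit offset gave the position. Lists do not give library sizes, so depth is unknown.

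Lines with the same interval were collapsed to the summit of highest −log10 q. Receptor genes came from RefSeq GRCm38.p6 by symbol or synonym. Comparison windows were other protein-coding genes with 20 kb on each side, less the receptor windows. Overlap meant at least 1 bp. Intervals are exact Poisson for densities and Clopper-Pearson for shares, at 95%. Genes and sites were named by rules on strength and density (the 10 strongest wild-type members, the 5 strongest of each class, and the 5 densest and 5 sparsest clusters) and from lists of known receptors and signalling genes. The members and lists were chosen with earlier results of these data known. Promoters were aligned with Biopython, and the calculations were tested on simulated peaks. Alternatives changed the windows, the q threshold, the collapsing, the gene set, the chromosomes and the overlap rule.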

Additional observations from a re-analysis of the deposited data

How the results depend on the processing

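The 6 results were recomputed under 8 alternatives, 43 values in all; 25 stayed within the interval of the value reported, 13 moved outside it and 5 changed the direction against other genes. The receptor density as a ratio to other genes, 0.319 for wild-type CTCF, was 0.274 with 5 kb windows, 0.383 with 50 kb, 0.227 for peaks whose −log10 q reached 5 and 0.426 with receptor pseudogenes included. The ratio of median folds, 0.689, became 0.621 with 5 kb windows, 0.922 at the stricter q and 0.616 with pseudogenes. The difference in RAD21 share for Ins(CBS5-10), -1.96 percentage points, was -11.7 with 5 kb windows and changed sign to 5.38 at the stricter q, 1.51 with pseudogenes, 3.36 without chromosome 7 and 0.969 over 1 kb from any gene end. The interval of each of these values includes 0. The share of wild-type members found in Ins(CBS5-10), 45.1%, was 37.1% with 5 kb windows and 78.3% at the stricter q. That found in Del(CBS7-10), 49.9%, was 85.6% at the stricter q, above the 85.0% at other genes. The share of receptor genes with a wild-type peak, 24.6%, was 8.70% with 5 kb windows, 46.7% with 50 kb and 13.6% at the stricter q, where other genes had 70.3%, 95.2% and 81.3%. The causes were not tested.

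No paired analysis was possible because each group had 1 library. Depth is unknown, the lists differ in length, and a peak missing from a shorter list is not shown to be missing from the chromatin.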

Other observations

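Other chemosensory families were not uniformly sparse in CTCF. The 35 Tas2r bitter taste receptor genes had 5 wild-type CTCF peaks, 5.67 per Mb (1.84 to 13.2), and 6 of the 35 genes had a peak within 20 kb. The 15 Taar genes, which encode trace amine receptors of the olfactory epithelium, had 4 peaks, 17.5 per Mb (4.76 to 44.7). The 7 Fpr genes, formyl peptide receptors, had 15.2 per Mb and the 21 Ms4a genes 22.6. The 3 Tas1r genes, for sweet and umami taste, had 9 peaks, 59.4 per Mb (27.2 to 113). These windows are small, and the intervals of Taar, Fpr and Ms4a all reach the 26.3 per Mb of other genes. Those of Taar and Fpr also include the 8.39 per Mb of the receptor windows.

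DNA within 20 kb of receptor pseudogenes or other receptor gene types, outside the windows of receptor genes, came to 9.24 Mb and held 215 wild-type CTCF peaks, 23.3 per Mb (20.3 to 26.6), against 10.2 in Ins(CBS5-10) and 12.3 in Del(CBS7-10). Chromosome 4 alone held 82 of the 215 in 0.771 Mb, with a median fold of 2.61, and 23 and 35 peaks in the mutants.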
